A study of Arabidopsis thaliana with 17 samples.

Results

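The comparison described here sets the Pol IV null mutant nrpd1-3 against wild-type Col-0, and asks which clusters of 24 nt small interfering RNAs (siRNAs) kept or gained siRNAs without Pol IV and where these clusters lie. It comprised 4 libraries, 2 of nrpd1-3 and 2 of Col-0, chosen by genotype from the 12 libraries with values and the 17 samples of the series, and all 12939 clusters of the table. The study tested which part of NRPD1, the largest subunit of Pol IV, is needed for its recruitment by the CLASSY (CLSY) proteins. Small RNA libraries were made from flowers of Arabidopsis thaliana, with 2 biological replicates per genotype.

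The nrpd1-3 plants carried the null allele of NRPD1 and no transgene, whereas Col-0 plants carried neither mutation nor transgene. A second pair of genotypes, which shares no library with the first, was read at the same clusters. It consisted of the clsy quad mutant, with the alleles clsy1-7, clsy2-1, clsy3-1 and clsy4-1 of all CLSY genes, and NRPD1-3xF WT, in which an intact NRPD1 with a 3xFLAG tag was expressed in the nrpd1-3 background. NRPD1-3xF WT plants therefore also carry the nrpd1-3 allele. In the lines NRPD1-3xF AAA-YPMF and NRPD1-3xF CYC-AAAA, also in nrpd1-3, the tagged NRPD1 has alanines in place of the CYC or the YPMF residues. The table holds no transcript levels, so the labelled tissue could not be checked against markers. Nothing in the labels says whether the replicates came from separately grown plants, so p-values measure the spread between these libraries only.

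Pol IV is a plant-specific RNA polymerase whose short transcripts are copied into double-stranded RNA by RDR2 and cut by DICER-LIKE 3 into 24 nt siRNAs. These siRNAs are loaded onto ARGONAUTE proteins of the AGO4 group and guide DNA methylation, mostly at transposons. MicroRNAs are made on another route, from hairpin transcripts of Pol II that DICER-LIKE 1 cuts. Other Dicer proteins can also cut long hairpins that fold from inverted repeats, without a need for a copying polymerase.

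MicroRNA genes and inverted repeats lie at some of the clusters with most siRNA in nrpd1-3, so examples are shown before their values. Of all clusters, 20 begin in or no more than 100 bp from a microRNA gene of the annotation. Their mature microRNAs are shown for 4 genes whose clusters rose in nrpd1-3 (miR163, miR8121, miR848, miR1887), for the partly kept or uncalled MIR839 and MIR869, and for miR397a and miR776, whose clusters were almost emptied. Capitals mark the seed, bases 2 to 8, and sequences and positions are those of RefSeq for TAIR10.1. The 22 mature microRNAs of the 20 genes have 22 different seeds, so none of those shown share one.
miR163: uUGAAGAGgacuuggaacuucgau
miR8121: aAAGUAUAaugguuuagugguuug
miR848: uGACAUGGgacugccuaagcua
miR1887: uACUAAGUagagucuaagaga
miR839-5p: uACCAACCuuucaucguuccc
miR869.1: aUUGGUUCaauucugguguug
miR869.2: uCUGGUGUugagauaguugac
miR397a: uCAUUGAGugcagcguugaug
miR776: uCUAAGUCuucuauugauguu
The mature miR163 lies at chr1:24884359-24884382 on the plus strand and miR8121 at chr2:16588077-16588100 on the minus strand, and both are 24 nt long. miR848 is 22 nt long (chr5:4479448-4479469, minus strand), and miR1887 is 21 nt long (chr4:11370301-11370321, plus strand). Only 24 nt reads were counted, so the level at a gene whose annotated microRNA is shorter is not the level of that microRNA.

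The other feature was an inverted repeat near the start of the cluster, which most clusters with high nrpd1-3 levels did not have. Of 23 clusters with at least 10 RPKM in both nrpd1-3 libraries, 6 had one within 2 kb (26.1%). The share of all nuclear clusters was 6.95%, by the definition given below. The next 2 stretches are read on the plus strand of TAIR10.1, and their clusters had 24% or more of the Col-0 level in nrpd1-3. They were picked for long arms close together, among non-coding RNA gene clusters called higher or among the 10 highest in nrpd1-3. Other clusters with such arms are not shown, such as MIR8178 with arms of 91 bases and a spacer of 18 bases. Capitals mark the longest pair of perfectly complementary arms within 2 kb of the cluster start, and the spacer between the arms is in lower case.
AT1G09805: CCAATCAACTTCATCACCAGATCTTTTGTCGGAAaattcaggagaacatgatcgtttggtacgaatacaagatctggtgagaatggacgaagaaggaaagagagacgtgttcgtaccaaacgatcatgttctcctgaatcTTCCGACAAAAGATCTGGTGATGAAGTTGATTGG
AT3G07855: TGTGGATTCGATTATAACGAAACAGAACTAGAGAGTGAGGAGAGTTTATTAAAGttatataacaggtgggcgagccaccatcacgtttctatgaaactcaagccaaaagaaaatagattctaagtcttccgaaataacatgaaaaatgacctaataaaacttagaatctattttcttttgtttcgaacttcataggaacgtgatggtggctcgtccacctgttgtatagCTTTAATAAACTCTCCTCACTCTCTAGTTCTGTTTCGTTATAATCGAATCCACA
The AT1G09805 stretch (chr1:24721199-24721372) has arms of 34 bases and a spacer of 106 bases. The AT3G07855 stretch (chr3:17728626-17728908) has arms of 54 bases and a spacer of 175 bases.

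Almost every cluster was lower in nrpd1-3. Levels are given as RPKM, in which the reads of a cluster are divided by its length and by the total of the library. A cluster was called higher or lower where limma gave an adjusted p under 0.01 and the log2 fold change was 1 or more in size, on log2(RPKM + 1), a scale that understates the fold of clusters with low levels. Of 12939 clusters, 12658 were called lower in nrpd1-3 than in Col-0 (97.8%), 12 were called higher (0.0927%) and 269 were not called. The median log2 fold change was −3.53. By unadjusted p under 0.05 (limma), 19 were higher and 12897 lower. Both nrpd1-3 libraries lay below both Col-0 libraries at 12906 clusters (99.7%) and above both at 19 clusters (0.147%).

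The summed RPKM over all clusters was 5.81% and 7.10% of the mean Col-0 sum in nrpd1-3 replicates 1 and 2. Of the clusters, 63.0% in nrpd1-3 replicate 1 and 55.3% in replicate 2 were listed at 0, against 0.0309% and 0.0232% in the Col-0 libraries, and 5715 clusters were at 0 in both nrpd1-3 libraries. A single cluster, at MIR163, held 69.6% and 66.9% of the nrpd1-3 sums. Without it, the nrpd1-3 sums were 1.79% and 2.38% of the Col-0 mean. The table gives no counts or cluster lengths. The study's own summary of read processing was not used here, so levels were not set against the depth of each library. In whole flowers, fewer cells making an siRNA and fewer siRNAs per cell cannot be told apart. RPKM is relative to a library total, and the median ratio of nrpd1-3 to Col-0 over 11 microRNA gene clusters with at least 1 RPKM in both genotypes was 1.49, which served as another scaling. That minimum leaves out the 9 microRNA clusters with the lowest nrpd1-3 levels, and over all 20 the median share of the Col-0 level was 9.13%.

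**Figure D1:**
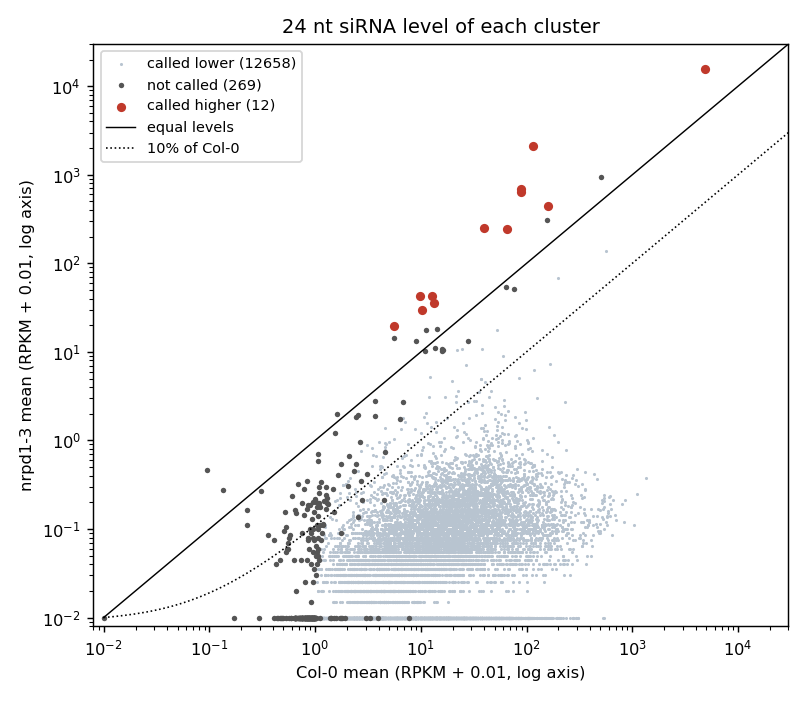
Mean 24 nt siRNA level of each of the 12939 clusters in nrpd1-3 (vertical axis) against Col-0 (horizontal axis), in RPKM + 0.01 on log axes, with points coloured by the limma call; the solid line marks equal levels and the dotted line 10% of the Col-0 level. Most clusters lie far below the dotted line, and the 12 clusters called higher in nrpd1-3 lie above the solid line.

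Of the clusters called lower, those with the highest Col-0 levels were almost emptied. The cluster 94 bp past the non-coding RNA gene AT3G06675 (start at chr3:15680917) had 0.38 and 0.35 RPKM in nrpd1-3, against 1380 and 1292 RPKM in Col-0, a log2 fold change of −9.94 ± 0.07 (SE, n = 2 each; adjusted p = 4.86e-06, limma). The cluster in an intron of AT4G08545 (chr4:5438259) had 0.10 RPKM in both nrpd1-3 libraries, against 1070 and 997 RPKM in Col-0. The cluster at chr4:13902361, which is in no gene and 361 bp from PYL10, a gene for an abscisic acid receptor, had 0.34 and 0.14 RPKM in nrpd1-3, against 1137 and 1098 RPKM in Col-0. Each kept 0.0273% or less of its Col-0 mean, and the genotypes did not overlap.

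The 12 clusters with more siRNA in nrpd1-3 comprised 5 at microRNA genes, 3 at other non-coding RNA genes, 2 in introns of protein-coding genes and 2 in no gene. Their nrpd1-3 means were 2.74 to 18.3 times their Col-0 means, with a median of 3.63. In no case did an nrpd1-3 library overlap a Col-0 library. Together they held 87.5% and 87.9% of the nrpd1-3 sums, against 1.48% and 1.60% of the Col-0 sums. Without Col-0 replicate 1 or without Col-0 replicate 2, only the MIR848 cluster was called higher, whereas without nrpd1-3 replicate 1 or 2 the counts were 14 and 13. With nrpd1-3 values divided by 2, as an alternative scaling, 5 of the 12 clusters were called higher: those at AT4G26255, MIR8121, MIR848, MIR8178 and near AT3G44570.

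The cluster at chr4:13295908, in an exon of the non-coding RNA gene AT4G26255 (chr4:13293941-13296465), had the largest gain. It had 1456 and 2730 RPKM in nrpd1-3, against 118 and 110 RPKM in Col-0. This is an 18.3-fold difference of the means and a log2 fold change of 4.12 ± 0.35 (SE, n = 2 each; adjusted p = 0.000591, limma). The nrpd1-3 libraries differed from each other more here than at the other 11 gained clusters, and replicate 2 was above replicate 1 at 10 of the 12. Both lay far above Col-0. Words of 16 letters whose reverse complement lies nearby, called inverted repeat words here, covered 98 bases within 5 kb of its start and 0 within 2 kb.

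Among the microRNA genes, MIR8121 and MIR848 gained most. The MIR8121 cluster (chr2:16588018) had 649 and 718 RPKM in nrpd1-3, against 87.1 and 91.7 RPKM in Col-0, a log2 fold change of 2.92 ± 0.09 (SE, n = 2 each; adjusted p = 2.08e-05, limma). The MIR848 cluster (chr5:4479376) had 646 and 639 RPKM in nrpd1-3, against 83.6 and 93.0 RPKM in Col-0, a log2 fold change of 2.85 ± 0.08 (SE, n = 2 each; adjusted p = 2.06e-05, limma). At both genes the 2 libraries of a genotype lay close together and the genotypes were far apart.

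MIR163 had by far the highest level of any cluster in nrpd1-3. Its 24 nt microRNA represses transcripts of methyltransferases that use S-adenosylmethionine. The cluster (chr1:24884060, 6 bp before the annotated gene) had 14422 and 16969 RPKM in nrpd1-3, against 4813 and 4956 RPKM in Col-0, a log2 fold change of 1.68 ± 0.10 (SE, n = 2 each; adjusted p = 0.000171, limma). The ratio of the means was 3.21, and the cluster was not called higher with nrpd1-3 values divided by 2.

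The remaining microRNA genes with a gain had lower levels. The MIR8178 cluster (chr4:18087176) had 37.2 and 49.2 RPKM in nrpd1-3, against 10.9 and 8.52 RPKM in Col-0 (log2 fold change 2.04, adjusted p = 0.000966, limma). The MIR1887 cluster (chr4:11370268) had 353 and 524 RPKM in nrpd1-3, against 170 and 149 RPKM in Col-0 (log2 fold change 1.43, adjusted p = 0.00538, limma). The MIR1887 call was the least stable of the 12 and was made in 7 of 13 alternative settings.

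Most clusters at microRNA genes did not behave in this way. Of the 20, 14 were called lower, 5 higher and 1 not called, and 10 kept at least 10% of the Col-0 level. The MIR869 cluster, which was not called, had 11.4 and 15.3 RPKM in nrpd1-3, against 8.83 and 9.07 RPKM in Col-0. The MIR839 cluster had 61.3 and 75.8 RPKM in nrpd1-3, against 196 and 205 RPKM in Col-0, and was called lower with 34.3% kept (log2 fold change −1.54, adjusted p = 0.000613, limma).

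The MIR397a cluster, at the gene of a microRNA that targets laccase transcripts, had 0.52 and 0.42 RPKM in nrpd1-3, against 32.0 and 28.7 RPKM in Col-0. The MIR776 cluster had 0.56 and 1.36 RPKM in nrpd1-3, against 105 and 100 RPKM in Col-0. Those of MIR5662, MIR8177 and MIR10515 were listed at 0 in both nrpd1-3 libraries, with Col-0 means from 36.0 to 68.5 RPKM. The shares of the Col-0 level thus formed a graded series, with MIR5638a at 12.3%, MIR5641 at 6.91% and MIR5027 at 5.96% between MIR839 and the emptied clusters. By the annotated length of the microRNA, the 2 clusters with a 24 nt microRNA were called higher, the 1 with a 23 nt microRNA (MIR5659) kept 2.00%, and of the 17 with shorter ones 3 were called higher and 13 lower.

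**Figure D2:**
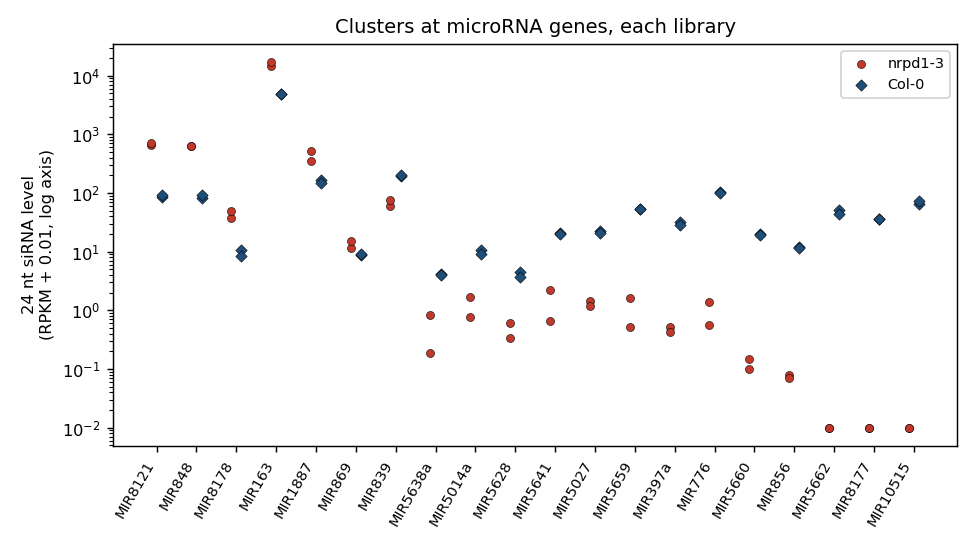
RPKM + 0.01 on a log axis at the 20 clusters that start within 100 bp of a microRNA gene, with 1 point per library for nrpd1-3 (circles, left) and Col-0 (diamonds, right), ordered by the share of the Col-0 level in nrpd1-3. The first 6 genes lie at or above Col-0, MIR839 keeps 34.3%, and the last 3 are listed at 0 in both nrpd1-3 libraries.

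The gained clusters outside microRNA genes ranged widely in level. The cluster at chr5:17230109 is in an intron of AT5G42950 (chr5:17224270-17231384) and had 242 and 241 RPKM in nrpd1-3, against 62.1 and 67.1 RPKM in Col-0 (log2 fold change 1.89, adjusted p = 4.95e-05, limma). The cluster at chr2:818861, in an exon of the non-coding RNA gene AT2G04345, had 41.2 and 45.3 RPKM in nrpd1-3, against 12.7 and 12.5 RPKM in Col-0 (log2 fold change 1.70). Its surroundings hold 2664 bases of inverted repeat words within 5 kb.

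The cluster at chr3:11482734, 24 bp past the end of AT3G00580, had 17.4 and 21.6 RPKM in nrpd1-3, against 5.43 and 5.63 RPKM in Col-0 (log2 fold change 1.64). The cluster at chr4:1873241, 383 bp from AT4G03940, had 25.1 and 34.4 RPKM in nrpd1-3, against 10.8 and 9.83 RPKM in Col-0 (log2 fold change 1.42). The cluster in an intron of AT1G05780 (chr1:1727121) had 33.3 and 38.8 RPKM in nrpd1-3, against 13.3 and 13.1 RPKM in Col-0 (log2 fold change 1.38). All 3 had nrpd1-3 means at least 2.74 times those of Col-0, and none was called higher with nrpd1-3 values divided by 2.

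The remaining gained cluster stood out by its pattern over genotypes. It starts at chr3:16157970, in no gene and 435 bp from AT3G44570, with 1880 bases of inverted repeat words within 5 kb and arms of 62 bases 1496 bases apart. It had 227 and 269 RPKM in nrpd1-3, against 39.7 and 38.7 RPKM in Col-0, a log2 fold change of 2.62 ± 0.11 (SE, n = 2 each; adjusted p = 6.29e-05, limma). In the clsy quad it had only 2.21 RPKM in both libraries, against 112 RPKM in both of NRPD1-3xF WT, a log2 fold change of −5.14 (adjusted p = 2.04e-06, limma). In the other lines that carry nrpd1-3 it had 199 and 204 RPKM in NRPD1-3xF AAA-YPMF and 259 and 281 RPKM in NRPD1-3xF CYC-AAAA. Thus every library with the nrpd1-3 allele lay above Col-0 and both clsy quad libraries lay below it.

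**Figure D3:**
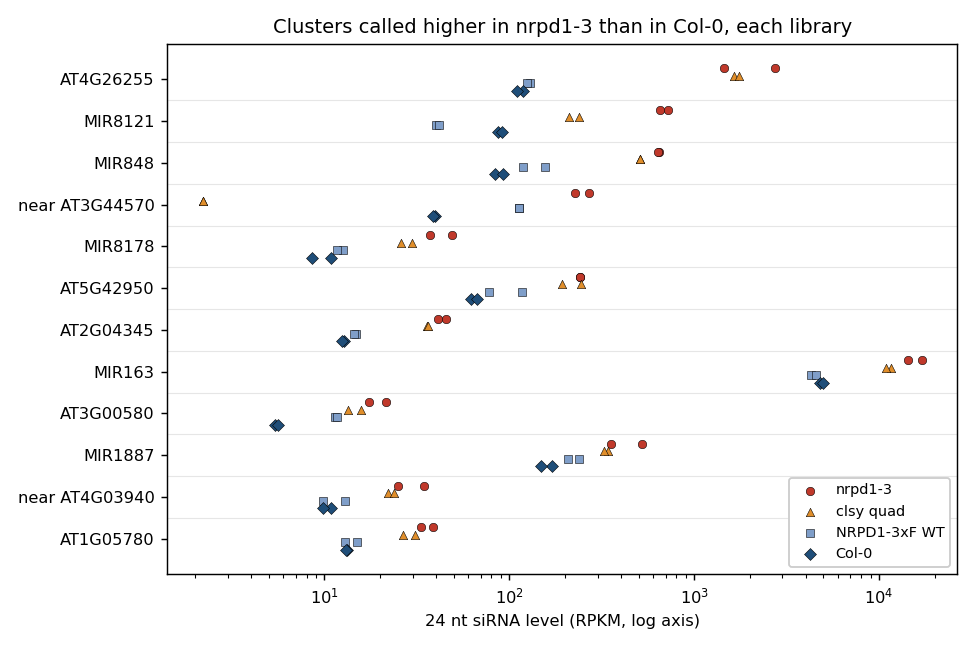
RPKM on a log axis of the 12 clusters called higher in nrpd1-3 than in Col-0, ordered by log2 fold change and named by gene or nearest gene, with 1 point per library of nrpd1-3, clsy quad, NRPD1-3xF WT and Col-0. The nrpd1-3 libraries lie right of the Col-0 libraries at all 12, and the clsy quad lies right of NRPD1-3xF WT at all but the cluster near AT3G44570.

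The gain was also read in libraries that took no part in its choice. RPKM is relative to a library total, and the clsy quad sums were likewise only 4.83% and 4.79% of the Col-0 mean. A rise common to both mutants can therefore not be told apart from a common change of scale. In the clsy quad against NRPD1-3xF WT, 12631 of 12939 clusters were called lower (97.6%) and 10 higher (0.0773%), and 7 of these 10 were among the 12 clusters called higher in nrpd1-3. Of the other 5, 1 was called lower (near AT3G44570) and 4 were not called (AT3G00580, MIR1887, near AT4G03940 and AT1G05780), with log2 fold changes of 0.30 to 0.99. Leaving out either NRPD1-3xF WT replicate lowered the count of 10 to 2. The AT4G26255 cluster had 1634 and 1748 RPKM in the clsy quad, against 130 and 125 RPKM in NRPD1-3xF WT (log2 fold change 3.72, adjusted p = 5.10e-06, limma). The MIR163 cluster had 11616 and 10934 RPKM in the clsy quad, against 4301 and 4534 RPKM in NRPD1-3xF WT (log2 fold change 1.35, adjusted p = 5.96e-05, limma).

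The clsy quad libraries lay above both NRPD1-3xF WT libraries at 11 of 12, against 34 of all clusters (0.263%), while they lay below both at 12792 (98.9%). Between nrpd1-3 and the clsy quad, 0 clusters were called by limma, with a smallest adjusted p of 0.0220, while 183 were higher and 508 lower at an unadjusted p under 0.05. The cluster near AT3G44570 had the largest difference in favour of nrpd1-3 (log2 fold change 6.27). With only clusters of at least 1 RPKM tested, 8 were called.

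Kept siRNAs were counted as a share of the Col-0 level, with no test. In nrpd1-3, 157 clusters (1.21%) had at least 10% of their Col-0 mean, 37 (0.286%) had at least 50% and 21 were at or above Col-0. Both nrpd1-3 libraries were above 0 at 132 of the 157, and 92 had an nrpd1-3 mean under 1 RPKM. Of the 157, 65 were called lower, 80 were not called and 12 were called higher. With nrpd1-3 values divided by 2, 81 clusters had at least 10% and 21 at least 50%. Of the 157 clusters, 83 (52.9%) also had at least 10% in the clsy quad relative to NRPD1-3xF WT, which is 37.9% of the 219 clusters with that property there (1.69% of all clusters). Of the 37, 26 had at least 50% in the clsy quad, against 0.68% of all clusters.

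Of the 10 clusters with the highest level in nrpd1-3, 2 were above Col-0 without a call. The AT1G09805 cluster (chr1:24720965), whose arms are shown above, had 853 and 1012 RPKM in nrpd1-3, against 489 and 518 RPKM in Col-0 (log2 fold change 0.88, below the limit of 1). The cluster at chr5:22322586, 251 bp from AT5G55010, had 286 and 324 RPKM in nrpd1-3, against 161 and 148 RPKM in Col-0 (log2 fold change 0.98). At both, the nrpd1-3 libraries lay above those of Col-0, but with nrpd1-3 values divided by 2 the log2 fold changes were −0.12 and −0.0196.

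The cluster in AT3G07855 (chr3:17728477), a non-coding RNA gene whose arms are shown above, had 116 and 159 RPKM in nrpd1-3, against 621 and 513 RPKM in Col-0. It was called lower (log2 fold change −2.05, adjusted p = 0.00111, limma), yet with 24.3% kept it was among the 10 clusters with the highest level in nrpd1-3. The clsy quad had 141 and 138 RPKM, against 573 and 515 RPKM in NRPD1-3xF WT (log2 fold change −1.96).

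A further 10 clusters with at least 10 RPKM in Col-0 had 47.5% to 157% of its level in nrpd1-3. The highest share was at chr2:3275780, with 14.7 and 20.6 RPKM in nrpd1-3, against 10.6 and 11.8 RPKM in Col-0, but 100% of the 24-letter words in its first 500 bases were also in the mitochondrial genome. At chr4:11359595, in no gene, the values were 17.4 and 19.3 RPKM in nrpd1-3, against 13.6 and 14.8 RPKM in Col-0. Neither was called.

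In an exon of MRG2 (AT1G02740), a gene for a reader of methylated histone H3, the cluster had 8.02 and 12.6 RPKM in nrpd1-3, against 13.3 and 8.68 RPKM in Col-0, and the genotypes overlapped. At chr5:16715937, 55 bp past AT5G41763, the values were 45.5 and 63.9 RPKM in nrpd1-3, against 69.1 and 57.7 RPKM in Col-0, and they overlapped as well. At chr1:23140473, in no gene, 57.1 and 44.8 RPKM in nrpd1-3 lay below 74.3 and 76.7 RPKM in Col-0 (log2 fold change −0.57, not called). No inverted repeat of 16-letter words was found within 5 kb of the clusters at chr1:23140473 and in MRG2.

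Of the other 5, 3 lay together on chromosome 3, at positions 11348247, 11354299 (28 bp before the pseudogene AT3G29540) and 11479522 (in an intron of AT3G29639), with the gained cluster at 11482734 beside them. Their nrpd1-3 levels ranged from 9.15 to 12.2 RPKM, against 14.9 to 16.95 RPKM in Col-0, with 64.6% to 67.7% kept. These 4 clusters shared 0% of the 24-letter words in their first 500 bases, although those at 11479522 and 11482734 lie beside the same pair of arms of 50 bases. The clusters at 11348247 and 11354299 had nearly the same levels. These were 9.15 and 12.17 RPKM against 9.22 and 11.88 RPKM in nrpd1-3, and 16.64 and 14.87 RPKM against 16.95 and 15.14 RPKM in Col-0. Cluster ends are unknown, so whether the 4 clusters share reads beyond those bases was not tested. The other 2 were at chr1:10982103, with 80.7% kept and no overlap of the genotypes, and chr4:6943471, which at 47.5% was called lower (log2 fold change −1.01).

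By chromosome, the 157 clusters with at least 10% numbered 22 of 2847 on chromosome 1 (0.773%), 30 of 2598 on chromosome 2 (1.15%), 35 of 2566 on chromosome 3 (1.36%), 20 of 2088 on chromosome 4 (0.958%), 28 of 2803 on chromosome 5 (0.999%) and 22 of 37 on the mitochondrial genome (59.5%). They were spread widely, with at least 1 in 64 of 121 bins of 1 Mb. By count, the fullest bin was chromosome 2 from 3 to 4 Mb, with 13 of 196 clusters (6.63%). Next were chromosome 3 from 11 to 12 Mb with 7 of 295 (2.37%) and from 13 to 14 Mb with 7 of 219 (3.20%). By share, chromosome 5 from 6 to 7 Mb was highest, with 3 of 43 clusters (6.98%). The 12 gained clusters lay in 12 different bins, with 4 on chromosome 4 and 2 on each other nuclear chromosome.

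The pericentromere was taken as 3 Mb on either side of rounded centromere positions. In the arms, 5618 of 5675 clusters were called lower (99.0%), 9 higher and 48 not called, with a median log2 fold change of −4.29. In the pericentromere, 7035 of 7227 were called lower (97.3%), 3 higher and 189 not called, with a median log2 fold change of −2.77. The smaller fold change went with a lower Col-0 level, at a median of 6.01 RPKM against 20.8 RPKM in the arms. The summed nrpd1-3 level was 9.62% of Col-0 in the arms, where MIR163 lies, and 0.611% in the pericentromere.

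Level was therefore held at a minimum to compare positions. Among 6937 clusters with a Col-0 mean of at least 10 RPKM, 46 kept at least 10%, and 9 of these (19.6%) were pericentromeric, against 38.1% of the 6937. Within 2 Mb of the centromere there were 3 (6.52%), against 19.2% of the 6937. The contrast was smaller without the minimum. Of the 135 nuclear clusters that kept at least 10%, 65 (48.1%) were pericentromeric, against 56.0% of all nuclear clusters. Within 2 Mb there were 48 (35.6%), against 38.7%. Above the minimum the median Col-0 level still differed, at 29.1 RPKM in the arms and 22.0 RPKM in the pericentromere. Of the 12 gained clusters 0 lay within 2 Mb, against 38.7% of all nuclear clusters. The 3 in the pericentromere (25.0%, against 56.0% of all nuclear clusters) were those near AT3G44570 and AT4G03940 and at AT3G00580. These shares are descriptions of small sets and were not tested.

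**Figure D4:**
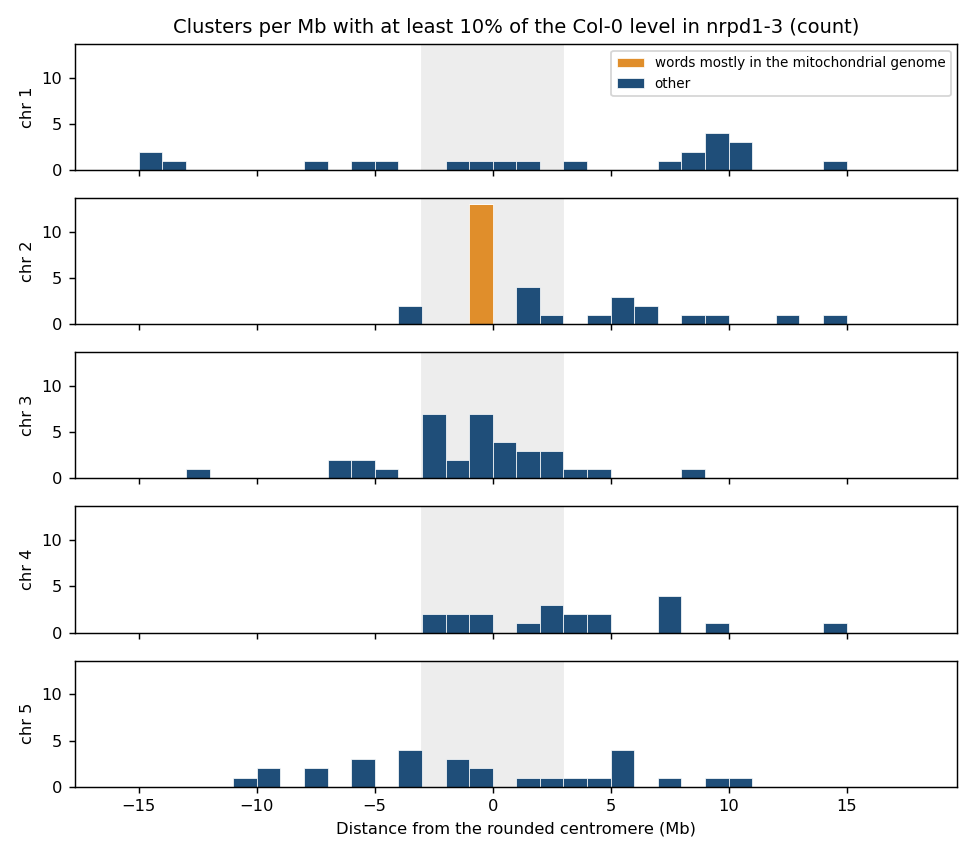
Number of clusters per Mb with at least 10% of the Col-0 level in nrpd1-3 by distance from the rounded centromere (Mb) on the 5 nuclear chromosomes; the shaded band is the pericentromere of 3 Mb on either side. Kept clusters are scattered over arms and pericentromeres except for the 13 on chromosome 2 just beside the centromere (orange), whose words are mostly found in the mitochondrial genome.

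Clusters on the mitochondrial genome were seldom called lower. Of the 37 clusters 5 were called lower (13.5%), 32 were not called and 22 kept at least 10%. Their summed level was 10.88 and 11.04 RPKM in nrpd1-3, against 49.2 and 52.6 RPKM in Col-0, so that 21.5% was kept. The cluster at position 67319 had 0 RPKM in both nrpd1-3 libraries, against 5.0 and 5.35 RPKM in Col-0, whereas that at 215740 had 1.92 and 1.79 RPKM in nrpd1-3, against 3.58 and 3.71 RPKM in Col-0. The median Col-0 level was 1.05 RPKM, at which even 0 RPKM in nrpd1-3 gives a log2 fold change close to the limit for a call.

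The block on chromosome 2 resembled the mitochondrial clusters in sequence as well as in values. Arabidopsis carries a large insertion of mitochondrial DNA beside the centromere of chromosome 2. Between positions 3242329 and 3509252, 26 clusters had at least 50% of the 24-letter words of their first 500 bases in the mitochondrial genome. At 24 of the 26, under 10% of the words occurred only once in the nuclear, mitochondrial and plastid genomes counted together. A word shared with the mitochondrial genome is repeated in that count, so this low share follows in part from how the 26 were chosen. Of these 26, 13 kept at least 10%, 6 were called lower and 20 were not called. Of the other 170 clusters of that bin, 0 kept at least 10% and 156 were called lower. The median Col-0 level was 0.88 RPKM at the 26 and 3.22 RPKM at the 170. At 0.88 RPKM even 0 RPKM in nrpd1-3 falls short of the limit for a call. The calls of the 2 sets can therefore not be compared, and their kept shares rest on low levels. Reads of such words from the nuclear copy and from mitochondria cannot be told apart, and together the mitochondrial and mitochondrial-like clusters made up 35 of the 157.

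By annotation, the share of clusters with at least 10% of the Col-0 level was 50.0% at microRNA genes (10 of 20), 4.58% at other non-coding RNA genes (11 of 240), 1.90% at protein-coding genes (34 of 1794), 0.759% in no gene (67 of 8829) and 0.596% at pseudogenes and transposable element genes (12 of 2012). With only starts inside the gene counted, 5 of 9 clusters at microRNA genes were kept. All 3 clusters at small nuclear or nucleolar RNA genes and all 4 at tRNA genes were called lower, as were 97.8% of all clusters. No cluster started at a trans-acting siRNA gene or an rRNA gene. The highest pseudogene or transposable element clusters were almost emptied, such as AT2G05290 with 0.09 and 0.11 RPKM in nrpd1-3, against 451 and 399 RPKM in Col-0.

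Inverted repeats were more frequent at clusters that kept siRNAs than at all clusters. A cluster was counted as having one where at least 100 bases within 2 kb of its start lay in 16-letter words whose reverse complement occurred elsewhere in that stretch, as for 6.95% of all nuclear clusters. Among clusters with at least 10 RPKM in Col-0, 13 of the 46 that kept at least 10% had one (28.3%), against 608 of all 6937 (8.76%). By finer steps the share was 23.8% of the 21 clusters with at least 50%, 32.0% of the 25 with 10% to 50%, 37.9% of the 29 with 5% to 10%, 15.4% of the 690 with 1% to 5% and 7.74% of the 6172 with less than 1%. Within 5 kb, 47.8% of the 46 had one, against 20.4% of the 6937.

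Of the 12 gained clusters 3 had an inverted repeat within 2 kb (25.0%) and 7 within 5 kb (58.3%). The shares of all nuclear clusters were 6.95% and 19.8%. Of the 10 gained clusters with at least 10 RPKM in Col-0, 1 had one within 2 kb and 5 within 5 kb. The shares of the 6937 were 8.76% and 20.4%. The longest arms within 5 kb of any gained cluster, or of any of the 46, were 1728 bases with a spacer of 122 bases, near the cluster at chr5:6630548, which had 4.36 and 5.02 RPKM in nrpd1-3, against 20.85 and 18.54 RPKM in Col-0. Arms of 125 bases lay near the cluster at chr5:1515100 and arms of 93 bases, 3021 bases apart, near the gained cluster at AT2G04345. A median of 94.1% of the 24-letter words in the first 500 bases occurred once in the genome for the 46 kept clusters, against 86.8% for the 6937.

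**Figure D5:**
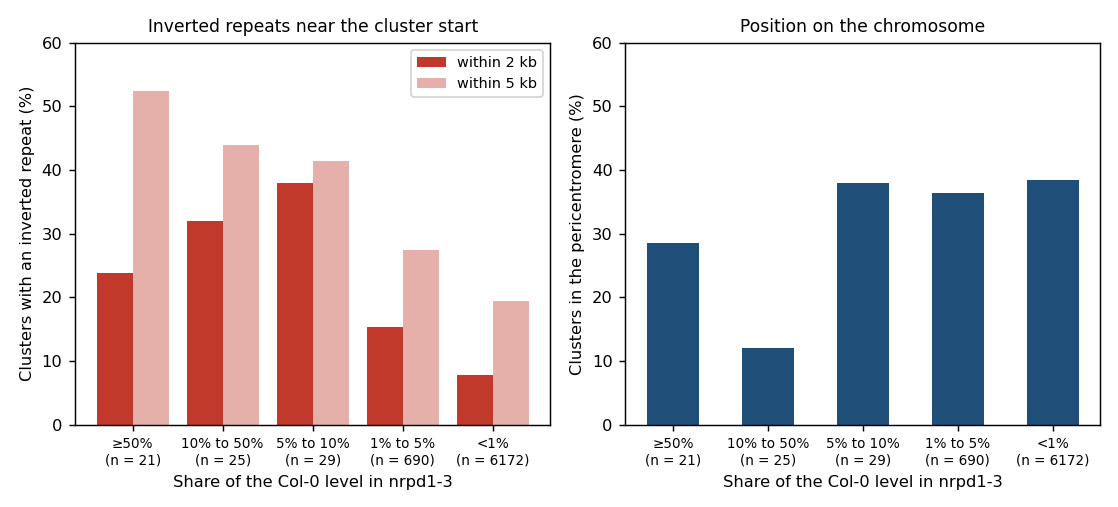
Share of clusters (%) with at least 100 bases of inverted repeat words within 2 kb (dark bars) or 5 kb (light bars) of the start (left panel) and share in the pericentromere (right panel), by the share of the Col-0 level kept in nrpd1-3, for clusters with at least 10 RPKM in Col-0. The 2 kb share is 7.74% at under 1% kept and between 23.8% and 37.9% in the 3 groups with at least 5% kept.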

How the data were processed

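Small RNA from flowers was sequenced. Per the labels and the study's methods, the authors trimmed adapters with cutadapt, mapped reads to TAIR10 with ShortStack, placing multi-mapping reads by the fractional-seeded option, kept perfect matches and reads with a mismatch at the 3′ end only, and made HOMER (4.10) tag directories by read length. The deposited table gives RPKM of 24 nt reads, without log transform, for a published set of 12939 clusters. Deduplication by molecular identifiers and the total used for scaling are not given in the sources used here. Each of 12 columns was matched to its sample by title, 0 were unused, and 5 flower-bud samples have no column.

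Values were tested as log2(RPKM + 1) with limma (3.58.1; lmFit, eBayes with a trend) in R (4.3.3), on the 4 libraries compared, with Benjamini-Hochberg adjustment over all 12939 clusters. The limits are those of the study, whose count test needs read counts. The test was checked on simulated data. A permutation of 2 against 2 libraries cannot give p below 0.333, so none was used.

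The number in a cluster's name was taken as its start, and ends are unknown. RefSeq's TAIR10.1 annotation has the nuclear coordinates of TAIR10, whereas the organelle genomes differ, so mitochondrial clusters were not annotated. A cluster belongs to a gene if it starts within 100 bp of it. Words were counted with Python (3.11.15), numpy (2.4.6) and Biopython (1.88). Centromeres were rounded to 15, 4, 14, 4 and 12 Mb on chromosomes 1 to 5.

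Clusters named are all called higher, the 10 highest in nrpd1-3, the 10 with the highest kept share of at least 10 RPKM in Col-0, the 5 highest called lower, the 5 with the largest fold change against the clsy quad, and up to 3 per annotation class. 1 sequence is not reported here. The members and lists were chosen with earlier results of these data known. Alternatives were another pseudocount, a filter, a replicate block, a joint fit, other limits, other scalings, NRPD1-3xF WT as reference and leaving out each library.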

Additional observations from a re-analysis of the deposited data

Results flagged for a closer look

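At 3 of the clusters named, every nrpd1-3 library moved one way from Col-0 and every clsy quad library the other way from NRPD1-3xF WT. This difference between the comparisons was not tested. The cluster near AT3G44570 (chr3:16157970) had a log2 fold change of 2.62 in nrpd1-3 against Col-0 and of −5.14 in the clsy quad against NRPD1-3xF WT. Of 12939 clusters, 1 was above both Col-0 libraries in nrpd1-3 and below both NRPD1-3xF WT libraries in the clsy quad, and 16 showed the reverse. Except at chr1:10982103 and chr3:11348247, these 16 had under 1 RPKM in both NRPD1-3xF WT libraries. The reverse at those clusters is thus a small difference between low levels, such as 1.59 and 0.64 RPKM in the clsy quad at chr1:24250883, against 0.15 and 0 RPKM in NRPD1-3xF WT. The cluster at chr1:10982103 had log2 fold changes of −0.30 and 0.37, and that at chr3:11348247 of −0.53 and 0.09, and neither was called in either comparison.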

How the results depend on the processing

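Of the count of 12658 lower clusters, all 13 alternatives stayed within 1.5 times, including 12681 with a replicate block. The replicate block gave 13 higher clusters; the numbers do not pair the libraries (correlation of deviations 0.0066). The 12 higher clusters numbered 5 with nrpd1-3 values divided by 2, and between 1 and 14 when a library was left out. The 10 clusters higher in the clsy quad numbered between 2 and 12 when a library was left out. Between nrpd1-3 and the clsy quad, 8 were called among clusters of at least 1 RPKM, 1 at an adjusted p under 0.05 and 1 in a fit over all 12 libraries.

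The 157 clusters with at least 10% numbered 104 among clusters of at least 1 RPKM, 81 with values divided by 2 and, added after seeing the data, 122 without mitochondrial and mitochondrial-like clusters. The 37 with at least 50% numbered 62 against NRPD1-3xF WT and 21 with values divided by 2. Log2 fold changes of the 45 named clusters kept direction and call in 509 of 585 alternative values and reversed in 10, none of them called. With values divided by 2 these were −0.12 (AT1G09805), −0.0196 (chr5:22322586), −0.33 (chr2:3275780) and −0.58 (chr4:11359595), the last also −0.20 with rescaling to microRNA genes. In MRG2 they were 0.21 without nrpd1-3 replicate 1 and 0.19 without Col-0 replicate 1, in a range of −0.38 to 0.21 when a library was left out, and 0.58 against NRPD1-3xF WT. Near AT5G41763 they were 0.0173 without nrpd1-3 replicate 1, in a range of −0.46 to 0.0173, and 0.0492 against NRPD1-3xF WT. The causes were not tested. Depth was not used here, so no limit was derived from a value of 0.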

Other observations

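The loss in nrpd1-3 was also set beside the line in which the tagged intact NRPD1 was expressed. Among 6937 clusters with at least 10 RPKM in Col-0, the NRPD1-3xF WT mean was 113% of the Col-0 mean at the median cluster. It was below 10% of Col-0 at 231 clusters (3.33%) and below 1% at 80 clusters. All 80 were called lower in nrpd1-3, as were 99.7% of the 6937. Of these 80, 69 lay in the arms (86.3%), against 61.9% of the 6937. The cluster at chr1:24250883, in no gene, had 0 RPKM in both nrpd1-3 libraries, 0.15 and 0 RPKM in NRPD1-3xF WT and 574 and 477 RPKM in Col-0. The cluster at the pseudogene or transposable element gene AT3G26775 had 0.49 and 0.79 RPKM in nrpd1-3, 0 RPKM in both NRPD1-3xF WT libraries and 177 and 172 RPKM in Col-0. These clusters were singled out after their values were seen.

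The mitochondrial clusters summed to 12.1 and 11.3 RPKM in the clsy quad, against 131 and 110 RPKM in NRPD1-3xF WT, which is above the 49.2 and 52.6 RPKM of Col-0. NRPD1-3xF WT lay above both Col-0 libraries at 35 of the 37, and likewise at 156 of the 170 clusters of chromosome 2 between 3 and 4 Mb without mitochondrial-like words. The share over all clusters was not counted, so these counts cannot be set apart from a tendency of the line. Its median over all clusters was 13.46 and 12.24 RPKM, against 11.75 and 10.99 RPKM in Col-0. Its sums were lower, at 96.0% and 88.1% of the Col-0 mean.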
